A study of Mus musculus with 4 samples.

Results

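The guidance genes described here are 41 genes of the semaphorin, ephrin, Slit and netrin systems, 21 of them ligands and 20 receptors, out of 23997 gene symbols measured. They were taken by symbol from the deposited table of FPKM (fragments scaled for transcript length and for sequencing depth), and each of the 41 had a single row there. RNA was sequenced from mesenchymal stem/progenitor cells, the adherent stromal cells grown from mouse bone marrow. The libraries number 2 from wild-type (WT) and 2 from Asxl1-/- mice, all of strain C57BL/6 and taken between passage 5 and passage 10, with no treatment named. Asxl1 encodes a chromatin regulator that partners the deubiquitinase BAP1. The labels give neither the age of the mice nor the deleted exons. They also do not say if replicates are separate animals or cultures, so each p-value reflects the spread of these libraries alone, which may be technical.

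Semaphorins signal through plexins. Secreted class 3 semaphorins bind neuropilins, which lend them their plexin partners, whereas class 4 to 7 semaphorins are mostly membrane proteins that bind plexins directly. Ephrins are anchored to the cell surface, ephrin-A by a lipid and ephrin-B by a transmembrane segment, and activate Eph receptor tyrosine kinases on the neighbouring cell; a signal can also run back into the ephrin-bearing cell. Slits act on Robo receptors, and netrins on Dcc, neogenin and Unc5 receptors. These systems were named for the steering of axons and also act in vessel growth, cell sorting at boundaries and bone, where for instance ephrin-B and EphB proteins and Sema3a take part in the exchange between osteoblasts and osteoclasts.

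The labels held in all 4 libraries for the deleted gene: Asxl1 stood at 14.6 and 11.2 FPKM in WT and 0.273 and 0.312 FPKM in Asxl1-/-. Type I collagen, Vim, Pdgfrb, Thy1 and Cxcl12 were at least at 33.7 FPKM in every library, but the progenitor marker Eng was under 1 FPKM in 3 of 4, and Pdgfra was at 4.78 FPKM in WT replicate 2 against 58.8 to 80.9 FPKM in the others. Summed over 14 macrophage markers, the libraries held 7.36 and 560.5 FPKM in WT and 81.4 and 376 FPKM in Asxl1-/-, and for 12 of the 14 the replicates 2 exceeded the replicates 1 of either group. In Asxl1-/- replicate 1 Fcer1g alone gave 72.2 of the 81.4 FPKM. Of 8 endothelial markers 7 stayed under 1 FPKM in every library, with Tie1, Emcn and Cldn5 listed at 0 throughout; the exception was Cdh5, at 7.11 FPKM in Asxl1-/- replicate 2. All 5 Schwann cell and neural markers stayed under 1 FPKM. Of 6 osteoclast markers 3 (Dcstamp, Ocstamp and Calcr) were listed at 0 in every library, while Ctsk stood between 33.2 and 48.5 FPKM. Mmp9, at 3.72 and 0.990 FPKM in WT and 0.0498 and 0.0805 FPKM in Asxl1-/-, and Acp5, at 0.419 and 1.15 FPKM in WT and 0.188 and 0.346 FPKM in Asxl1-/-, were lower in both Asxl1-/- libraries; their part in the results was not tested.

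Well below WT in both Asxl1-/- libraries were the ephrin Efna1 and its receptor Epha2, the secreted semaphorin Sema3a and the Eph receptor Ephb6. Nrp1, a co-receptor for class 3 semaphorins, stood higher in both. In the limma test on log2(FPKM + 1), run on the 11481 genes whose mean reached 1 FPKM, none of the 36 guidance genes that entered passed an adjusted p of 0.05, and the smallest adjusted p among them was 0.384. Over all genes that test called 0.0% higher and 0.0261% lower. The deleted gene Asxl1 did not pass either, at a log2 fold change of -3.41 and a limma adjusted p of 0.215. An adjusted p above 0.05 therefore does not show here that a gene is unchanged. In the authors' deposited table, made with Cuffdiff, Sema3a and Ephb6 are marked significant and lower, 2 of the 40 guidance genes tested there, where 0.543% of all tested genes are marked higher and 0.396% lower.

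Read by an unadjusted limma p under 0.05, 0 of 19 tested ligands were higher and 3 lower, and 1 of 17 tested receptors was higher and 2 lower, against 2.51% higher and 5.41% lower among all genes tested. Without overlap between the groups, 2 ligands and 3 receptors were higher in Asxl1-/- (10.5% and 17.6%), and 3 ligands and 3 receptors were lower (15.8% and 17.6%). Over all genes tested the shares were 15.6% above and 25.2% below, so by this count the guidance genes lay near or under the background. Counting all 41 whatever their level, 5 were higher and 9 lower without overlap, against 13.1% and 23.5% of all genes with no filter. A log2 fold change of at least 1 in size was seen upward for 5 and downward for 6 of the 36, against 3.64% and 6.09% of all genes tested. Both shares were larger than over all genes tested, as were those of lower ligands and receptors at an unadjusted p under 0.05. The members were chosen with earlier results of these data known, and these larger shares were not tested. The median log2 fold change was 0.03 for the ligands and -0.10 for the receptors, against -0.07 for all genes tested. The 5 members that did not enter were Ephb2, Sema4d, Plxnb1, Robo2 and Sema6a, the 5 with a mean below 1 FPKM. In bulk RNA a lower level in every cell and a smaller share of cells that make the transcript cannot be told apart, here or below.

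**Figure D1:**
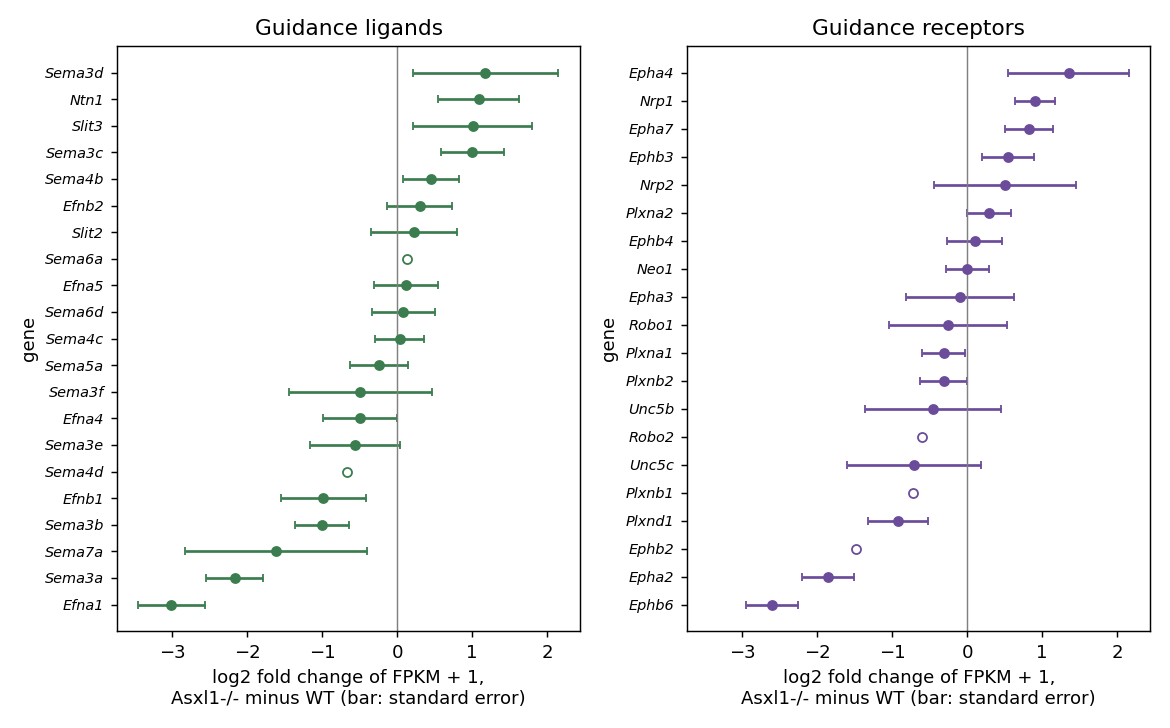
Log2 fold change of FPKM + 1, Asxl1-/- minus WT, of the 21 ligands (left) and the 20 receptors (right); bars are limma standard errors and open circles are the 5 genes with a mean below 1 FPKM, which were not tested. Efna1 and Sema3a lie lowest among the ligands, at -3.01 and -2.17, and Ephb6 and Epha2 among the receptors, at -2.60 and -1.86.

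The promoters of the genes with an unadjusted p under 0.05 are shown because they let the genes with the clearest separation be compared by CpG content, a basic property that divides mammalian promoters. Each run is 300 bases from RefSeq on GRCm38.p6 (the mm10 build of the files), 250 before the transcription start and 50 after, 5′ to 3′ on the strand of the gene, with each CG dinucleotide in capitals. No entry was found for Sema3b, the sixth such gene.
Ephb6 (chr6:41605261-41605560, strand +): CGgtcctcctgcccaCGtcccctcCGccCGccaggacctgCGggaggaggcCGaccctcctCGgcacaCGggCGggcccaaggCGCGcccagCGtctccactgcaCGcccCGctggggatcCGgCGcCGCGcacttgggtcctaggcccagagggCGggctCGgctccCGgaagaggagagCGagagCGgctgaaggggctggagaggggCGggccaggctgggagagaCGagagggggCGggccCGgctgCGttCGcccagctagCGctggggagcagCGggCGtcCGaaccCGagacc
Efna1 (chr3:89280902-89281201, strand -): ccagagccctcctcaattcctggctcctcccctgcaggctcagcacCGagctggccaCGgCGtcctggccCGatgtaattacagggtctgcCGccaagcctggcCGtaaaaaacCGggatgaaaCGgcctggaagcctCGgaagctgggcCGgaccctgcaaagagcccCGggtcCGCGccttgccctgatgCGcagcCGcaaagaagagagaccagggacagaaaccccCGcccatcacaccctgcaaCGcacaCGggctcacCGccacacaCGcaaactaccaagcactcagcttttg
Sema3a (chr5:13396534-13396833, strand +): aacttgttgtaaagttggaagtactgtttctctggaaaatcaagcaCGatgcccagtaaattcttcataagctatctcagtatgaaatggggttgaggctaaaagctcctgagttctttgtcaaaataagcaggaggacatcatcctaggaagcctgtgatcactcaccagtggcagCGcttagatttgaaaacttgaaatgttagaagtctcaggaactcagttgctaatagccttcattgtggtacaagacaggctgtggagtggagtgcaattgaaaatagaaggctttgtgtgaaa
Epha2 (chr4:141300971-141301270, strand +): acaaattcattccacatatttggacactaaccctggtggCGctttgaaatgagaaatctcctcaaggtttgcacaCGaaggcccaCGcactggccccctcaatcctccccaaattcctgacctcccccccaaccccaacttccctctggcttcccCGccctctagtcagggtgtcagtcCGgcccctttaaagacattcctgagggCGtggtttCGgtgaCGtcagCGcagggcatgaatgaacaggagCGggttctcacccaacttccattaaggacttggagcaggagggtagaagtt
Nrp1 (chr8:128358823-128359122, strand +): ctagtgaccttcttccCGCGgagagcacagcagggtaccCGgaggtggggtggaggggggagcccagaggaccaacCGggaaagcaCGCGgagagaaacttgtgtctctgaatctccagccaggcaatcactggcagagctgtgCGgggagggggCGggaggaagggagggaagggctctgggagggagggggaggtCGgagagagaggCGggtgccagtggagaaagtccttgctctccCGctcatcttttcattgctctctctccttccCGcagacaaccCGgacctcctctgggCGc
The 5 windows differ widely in CpG content: Ephb6 holds 34 CG dinucleotides, Efna1 20, Nrp1 14, Epha2 10 and Sema3a 2. The median was 23 over the 36 guidance genes with an entry and 21 over the tested genes with one, so the genes that stood lower lay on both sides of these medians. GGGCGG, the core of the GC box, searched on both strands, is present in the Ephb6, Efna1, Epha2 and Nrp1 windows and not in that of Sema3a; 72.2% of the guidance genes and 67.1% of the tested genes hold it. In no window of the 5 was TATAAA found on either strand, against 6.68% of the tested genes that hold it. The Sema3a window is that of the start used in the deposited table, and GENCODE release M21 places the gene's outermost start 271 kb further upstream.

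Among ligands, the class 3 semaphorins differed between the groups mainly in Sema3a. Sema3a, which repels axons and shields bone through neuropilin 1, stood at 29.9 and 30.4 FPKM in WT and 8.68 and 3.96 FPKM in Asxl1-/- (mm10 chromosome 5, 13396784 to 13603485). The WT libraries differed by under 1 FPKM and both Asxl1-/- libraries were far below them. Group means came to 30.1 ± 0.352 and 6.32 ± 3.34 FPKM (SD, n = 2 each). On the log2 scale the difference was -2.17, standard error 0.38 (limma adjusted p = 0.488). The authors' deposited table gives group values of 34.9 and 7.93 FPKM, a log2 change of -2.14 and q = 0.00836. In the limma fit, dropping each library in turn gave log2 fold changes from -2.65 to -1.69.

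Sema3c, an attractant in heart outflow tract development, was the class 3 gene higher in both Asxl1-/- libraries, at 14.9 and 8.78 FPKM in WT and 17.7 and 32.4 FPKM in Asxl1-/-. The groups did not overlap, but Asxl1-/- replicate 1 lay close to WT replicate 1 (log2 fold change 1.0, standard error 0.42, limma adjusted p = 0.632), and dropping 1 library gave 0.581 to 1.42. Sema3b, a secreted paralog often lost in tumours, stood at 2.76 and 4.61 FPKM in WT and 1.19 and 1.41 FPKM in Asxl1-/- (mm10 chromosome 9, 107597674 to 107609241). Here too the groups stood apart (log2 fold change -1.001, standard error 0.35, limma adjusted p = 0.615). Its unadjusted limma p was above 0.05 after median ratio scaling, after quantile normalization, and without WT replicate 2, Asxl1-/- replicate 1 or Asxl1-/- replicate 2. Its neighbour Sema3f, 72.3 kb away on chromosome 9 and a ligand of neuropilin 2, did not share this, at 4.81 and 7.07 FPKM in WT and 0.869 and 11.7 FPKM in Asxl1-/-: the lowest and the highest value both came from Asxl1-/-.

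The remaining class 3 genes also differed more within a group than between groups. Sema3d was near 0 in 3 libraries and at 5.46 FPKM in Asxl1-/- replicate 1, with 0.0959 and 0.195 FPKM in WT and 0.0314 FPKM in Asxl1-/- replicate 2. Its log2 fold change of 1.17 became -0.15 without Asxl1-/- replicate 1. Sema3e, which signals through plexin D1 without a neuropilin, stood at 3.71 and 1.22 FPKM in WT and 2.19 and 0.518 FPKM in Asxl1-/-, overlapping. Sema3d, Sema3a and Sema3e lie in that order on chromosome 5, 808 and 422 kb apart, and of these neighbours only Sema3a separated the groups in these 4 libraries.

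Summed over the 6 class 3 genes, the level was 56.2 and 52.3 FPKM in WT and 36.1 and 50.01 FPKM in Asxl1-/- (means 54.3 ± 2.80 and 43.0 ± 9.86, SD, n = 2 each; exact permutation p = 0.333, two-sided, the smallest that 2 against 2 can give). Within that sum Sema3a held 53.2% and 58.2% in WT and 24.1% and 7.92% in Asxl1-/-. Sema3c held 26.6% and 16.8% in WT and 49.0% and 64.8% in Asxl1-/-. The ratio of Sema3c to Sema3a was 0.5 and 0.289 in WT and 2.04 and 8.18 in Asxl1-/-, a comparison chosen after the values were seen that does not depend on any scaling factor of a whole library. The leading class 3 semaphorin was thus Sema3a in both WT libraries and Sema3c in both Asxl1-/- libraries.

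**Figure D2:**
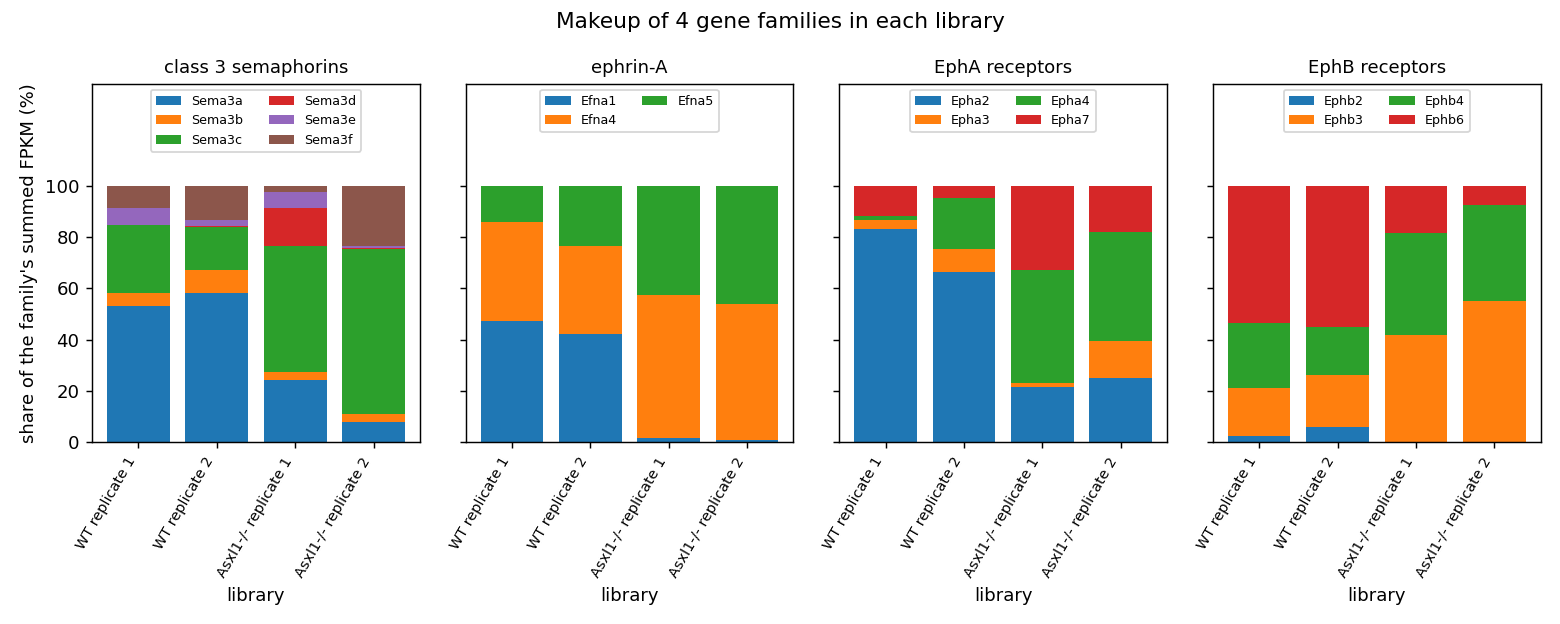
Share of the summed FPKM held by each gene (y axis, %) in class 3 semaphorins, ephrin-A genes, EphA receptors and EphB receptors, with 1 bar for each library (x axis). Sums cover only the genes among the 41. Of these sums Sema3a, Efna1, Epha2 and Ephb6 each held at least 42.0% in both WT libraries and at most 25% in both Asxl1-/- libraries.

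The membrane-bound semaphorins gave no member that separated the groups. Sema4c, a plexin B2 ligand, stood at 9.32 and 5.67 FPKM in WT and 6.46 and 8.67 FPKM in Asxl1-/-, and Sema5a at 5.03 and 6.51 FPKM in WT and 6.69 and 3.18 FPKM in Asxl1-/-. Sema4b stood at 2.96 and 3.18 FPKM in WT and 3.17 and 6.42 FPKM in Asxl1-/-, with 3 libraries close together and Asxl1-/- replicate 2 above them. Sema6d, a plexin A1 ligand, lay between 0.692 and 1.52 FPKM in the 4 libraries, and Sema6a between 0.0679 and 0.302 FPKM. Sema7a, a lipid-anchored semaphorin that binds plexin C1 and integrins, was high in WT replicate 2 alone, at 1.19 and 24.5 FPKM in WT and 1.98 and 0.999 FPKM in Asxl1-/-. Its log2 fold change of -1.62 became 0.155 without WT replicate 2. Sema4d, made by lymphocytes and osteoclasts and known to restrain osteoblasts, stood at 0.488 and 2.08 FPKM in WT and 0.0172 and 0.792 FPKM in Asxl1-/-. Sema7a and Sema4d were both highest in WT replicate 2, the library with the largest macrophage marker sum; the part of those cells in this was not tested.

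Among the ephrins, Efna1 differed most between the groups. This ligand of Epha2 stood at 11.4 and 5.25 FPKM in WT and 0.0880 and 0.0977 FPKM in Asxl1-/- (mm10 chromosome 3, 89271730 to 89280951), so both Asxl1-/- libraries were below 0.1 FPKM. Group means came to 8.34 ± 4.36 and 0.0928 ± 0.00683 FPKM (SD, n = 2 each). On the log2 scale the difference was -3.01, standard error 0.45 (limma adjusted p = 0.41). At a pseudocount of 0.1 in place of 1 the log2 fold change was -5.35. The authors' deposited table has a log2 change of -6.36 for it and q = 0.423. Genes of chromosome 3 as a whole differed from the mean of the other 3 libraries by a median of 0.56 in WT replicate 1 and -0.58 in Asxl1-/- replicate 1, in log2(FPKM + 1). Chromosome 9, which holds Sema3b, Sema3f, Sema7a, Plxnb1 and Neo1, had medians of -0.328 in WT replicate 1 and 0.404 in WT replicate 2. With each library's chromosome medians removed, taken there against the mean of all 4 libraries, Efna1 stood at -2.52. The same step gave -2.39 for Ephb6, -1.61 for Epha2, -2.09 for Sema3a and 1.15 for Nrp1, all on other chromosomes.

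Efna1 has close paralogs beside it on chromosome 3. Efna3, 34.0 kb away and not among the 41, stood at 1.10 and 1.63 FPKM in WT and 0.185 and 0.518 FPKM in Asxl1-/-, also without overlap. Efna4, 10.5 kb beyond Efna3, stood at 9.42 and 4.31 FPKM in WT and 2.85 and 6.20 FPKM in Asxl1-/-, so its groups overlapped. Its log2 fold change of -0.50 became -0.003 with the chromosome medians removed. The third ephrin-A member, Efna5, on chromosome 17, stood at 3.37 and 2.95 FPKM in WT and 2.17 and 5.37 FPKM in Asxl1-/-. Efna1 held 47.2% and 42.0% of the ephrin-A sum in WT and 1.72% and 0.836% in Asxl1-/-, where Efna4 and Efna5 made up nearly all of it. The sum itself was 24.2 and 12.5 FPKM in WT and 5.11 and 11.7 FPKM in Asxl1-/- (exact permutation p = 0.333, two-sided).

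The ephrin-B ligands, which bind EphB receptors and Epha4, did not separate the groups. Efnb1, needed for skull and rib patterning, stood at 18.3 and 41.4 FPKM in WT and 20.2 and 8.91 FPKM in Asxl1-/-, with the highest value in WT and the lowest in Asxl1-/-. Efnb2, the arterial ephrin, stood at 18.5 and 12.2 FPKM in WT and 27.1 and 12.9 FPKM in Asxl1-/-, highest in Asxl1-/- replicate 1. The ephrin-B sum lay between 21.8 and 53.6 FPKM, and both of these extremes came from replicates 2.

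The Slits were the most abundant ligands of the 41 by mean level, but uneven, and Ntn1, the only netrin among the 41, was at a lower level. Slit2 stood at 29.2 and 17.8 FPKM in WT and 15.7 and 45.5 FPKM in Asxl1-/- and Slit3, a Slit found in bone and vessel walls, at 19.8 and 18.0 FPKM in WT and 16.9 and 88.1 FPKM in Asxl1-/-. For Slit3 3 libraries lay between 16.9 and 19.8 FPKM, and its log2 fold change of 1.01 became -0.15 without Asxl1-/- replicate 2. Ntn1, a secreted netrin, stood at 4.44 and 1.47 FPKM in WT and 4.67 and 9.70 FPKM in Asxl1-/-. Its groups did not overlap, although WT replicate 1 and Asxl1-/- replicate 1 nearly met (log2 fold change 1.09, standard error 0.54, limma adjusted p = 0.65). Dropping 1 library gave 0.519 to 1.65.

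**Figure D3:**
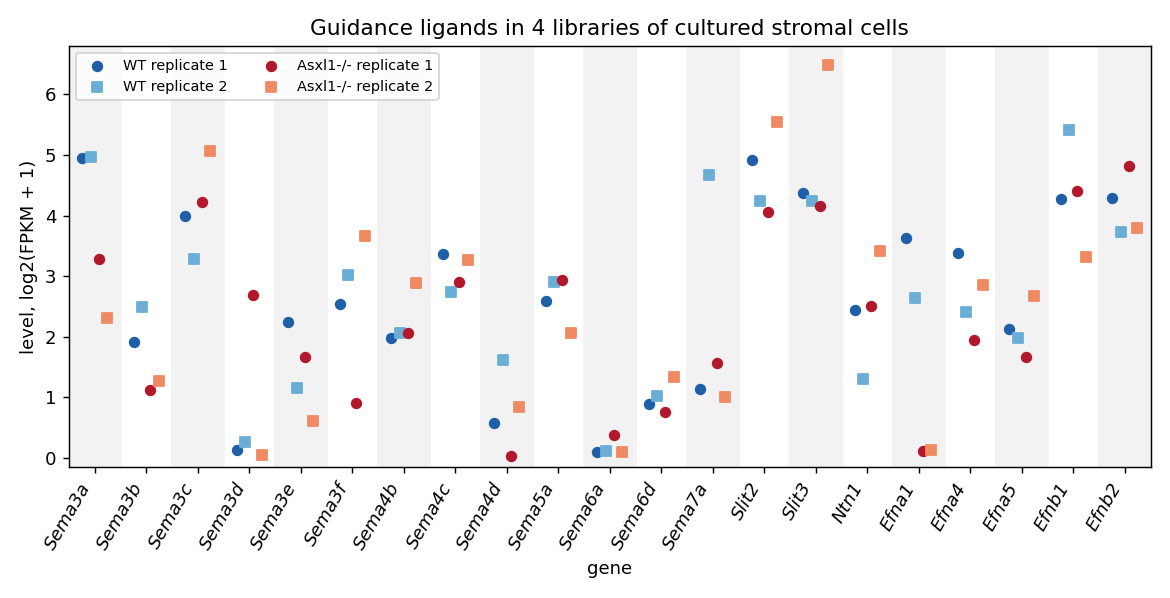
Level of each of the 21 guidance ligands, as log2(FPKM + 1) on the y axis, with 1 point for each of the 4 libraries. Sema3a, Sema3b and Efna1 have both Asxl1-/- points below both WT points, Sema3c and Ntn1 have them above, and for Sema7a and Slit3 a single library stands apart.

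Among the receptors, plexins had the highest family sum in 3 of 4 libraries and neuropilins in Asxl1-/- replicate 2. Plxnb2, the receptor of Sema4c, had the highest mean of all 41 genes, at 61.4 and 97.2 FPKM in WT and 62.7 and 61.2 FPKM in Asxl1-/-, with only WT replicate 2 apart. Plxna1, a partner of neuropilin 1, stood at 37.0 and 39.1 FPKM in WT and 24.8 and 37.2 FPKM in Asxl1-/-, with only Asxl1-/- replicate 1 lower. Plxnd1, the Sema3e receptor of vessels, lay lower in both Asxl1-/- libraries, at 10.2 and 6.28 FPKM in WT and 2.64 and 5.18 FPKM in Asxl1-/-, but its limma adjusted p was 0.632. Plxna2 stood at 2.59 and 3.27 FPKM in WT and 4.39 and 3.28 FPKM in Asxl1-/-; its groups did not overlap, yet WT replicate 2 and Asxl1-/- replicate 2 were all but equal. Plxnb1, the receptor of Sema4d, was scarce, at 0.883 and 1.29 FPKM in WT and 0.245 and 0.269 FPKM in Asxl1-/-. It was below WT in both Asxl1-/- libraries, and in the fit with no filter on low values its limma adjusted p was 0.613.

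The neuropilins behaved differently from each other. Nrp1, the co-receptor of Sema3a, stood at 26.7 and 24.0 FPKM in WT and 41.1 and 57.0 FPKM in Asxl1-/- (mm10 chromosome 8, 128359073 to 128505475), higher in both Asxl1-/- libraries. Group means came to 25.4 ± 1.95 and 49.0 ± 11.2 FPKM (SD, n = 2 each). On the log2 scale the difference was 0.91, standard error 0.27 (limma adjusted p = 0.564). Its log2 change in the authors' deposited table was 1.07, with a Cuffdiff q of 0.447. With 1 library dropped, the limma log2 fold change ran from 0.677 to 1.14. Nrp2, the co-receptor of Sema3f, varied by library instead, at 20.1 and 66.4 FPKM in WT and 23.7 and 115 FPKM in Asxl1-/-. Both replicates 2, which also held more of the macrophage markers, were above both replicates 1. The same order was seen in 10 of the 41 guidance genes, namely Plxna1, Nrp2, Robo1, Unc5b, Epha3, Epha4, Sema3f, Sema4b, Sema4d and Sema6d, and the opposite order in Sema3e, Unc5c and Efnb2. For Plxna1 it was nearly a tie, at 36.95 FPKM in WT replicate 1 against 37.22 FPKM in Asxl1-/- replicate 2. So it was for Sema4b, at 3.167 FPKM in Asxl1-/- replicate 1 against 3.178 FPKM in WT replicate 2. Of the 36 tested, 9 showed the first order and 3 the opposite, against 10.2% and 14.3% of all genes tested. The part of the macrophage markers' cells in this was not tested. The ratio of Nrp1 to its ligand Sema3a was 0.894 and 0.789 in WT and 4.73 and 14.4 in Asxl1-/-, again a ratio formed after the values were seen.

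Receptors of Slits were scarce next to their ligands. Robo1 stood at 0.745 and 7.14 FPKM in WT and 1.93 and 2.40 FPKM in Asxl1-/-, and Slit2 exceeded it between 2.50 and 39.2 times over the 4 libraries. Robo2 stood at 0.724 and 0.343 FPKM in WT, was listed at 0 in Asxl1-/- replicate 1 and stood at 0.0101 FPKM in Asxl1-/- replicate 2. Its limma adjusted p in the fit with no filter was 0.63. Among the netrin receptors, Neo1 (neogenin, which also binds repulsive guidance molecules) was the steadiest, at 13.6 and 20.6 FPKM in WT and 17.0 and 16.5 FPKM in Asxl1-/-, its log2 fold change being 0.00, standard error 0.28. Unc5b, a netrin receptor of vessels, stood at 8.58 and 48.5 FPKM in WT and 9.35 and 23.4 FPKM in Asxl1-/-, and Unc5c at 4.46 and 0.190 FPKM in WT and 1.29 and 0.0609 FPKM in Asxl1-/-. Both spread more within the groups than between them; Unc5b was higher in both replicates 2 and Unc5c in both replicates 1.

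Among tested receptors, log2 fold changes below -1 were those of Ephb6 and Epha2, both Eph receptors. Ephb6, a family member whose kinase domain is inactive, stood at 33.4 and 24.3 FPKM in WT and 5.15 and 2.83 FPKM in Asxl1-/- (mm10 chromosome 6, 41605482 to 41620507). The lowest WT value was over 4 times the highest Asxl1-/- value. Group means came to 28.9 ± 6.46 and 3.99 ± 1.64 FPKM (SD, n = 2 each). On the log2 scale the difference was -2.60, standard error 0.34 (limma adjusted p = 0.384). The authors' deposited table gives group values of 33.3 and 5.005 FPKM, a log2 change of -2.73 and q = 0.00836. In the limma fit, dropping 1 library gave -2.95 to -2.26.

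Ephb2, a kinase-active paralog, was low throughout but also lower in both Asxl1-/- libraries, at 1.37 and 2.53 FPKM in WT and 0.0317 and 0.0427 FPKM in Asxl1-/-. Its mean of 0.994 FPKM was just under the filter; its log2 fold change was -1.48, and in the fit with no filter the standard error was 0.24 and the limma adjusted p 0.578. Ephb3 stood at 11.8 and 9.10 FPKM in WT and 11.7 and 20.5 FPKM in Asxl1-/- and Ephb4, the venous receptor of ephrin-B2, at 16.0 and 8.35 FPKM in WT and 11.2 and 14.0 FPKM in Asxl1-/-, and both overlapped between the groups. Ephb6 therefore held 53.4% and 54.9% of the summed EphB level in WT and 18.3% and 7.58% in Asxl1-/-, while Ephb3 held 18.8% and 20.5% in WT and 41.6% and 54.9% in Asxl1-/-. The EphB sum was 62.6 and 44.3 FPKM in WT and 28.1 and 37.3 FPKM in Asxl1-/- (exact permutation p = 0.333, two-sided).

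Among the EphA receptors, Epha2, the main receptor of ephrin-A1, stood at 12.2 and 16.0 FPKM in WT and 2.24 and 4.30 FPKM in Asxl1-/- (mm10 chromosome 4, 141301221 to 141329384). The groups stood apart in the same direction as for its ligand Efna1. Group means came to 14.1 ± 2.71 and 3.27 ± 1.46 FPKM (SD, n = 2 each). On the log2 scale the difference was -1.86, standard error 0.34 (limma adjusted p = 0.502). The authors' deposited table has a log2 change of -2.001 for it and q = 0.101. In the limma fit, dropping 1 library gave -2.21 to -1.501.

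The other EphA receptors did not follow Epha2. Epha7 stood at 1.69 and 1.13 FPKM in WT and 3.44 and 3.10 FPKM in Asxl1-/-, higher in both Asxl1-/- libraries (log2 fold change 0.83, limma adjusted p = 0.631). Epha4, which binds ephrins of both classes, stood at 0.229 and 4.84 FPKM in WT and 4.64 and 7.32 FPKM in Asxl1-/-; WT replicate 1 was far below the other 3 libraries, and WT replicate 2 lay between the Asxl1-/- values. Epha3 stood at 0.524 and 2.08 FPKM in WT and 0.166 and 2.51 FPKM in Asxl1-/-, higher in both replicates 2. Of the summed level of the 4 EphA members, Epha2 held 83.3% and 66.6% in WT and 21.4% and 25% in Asxl1-/-. Epha4 held 1.56% and 20.1% of it in WT and 44.3% and 42.5% in Asxl1-/-. The sum of these 4 overlapped between the groups, at 14.7 and 24.1 FPKM in WT and 10.5 and 17.2 FPKM in Asxl1-/- (exact permutation p = 0.667, two-sided). Epha1, outside the 41 and this sum, stood at 12.4 and 0.983 FPKM in WT and 0.374 and 4.82 FPKM in Asxl1-/-. In WT replicate 1 it was about level with Epha2. The overlap and the shares therefore hold for the 4 members only, not for all EphA genes.

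**Figure D4:**
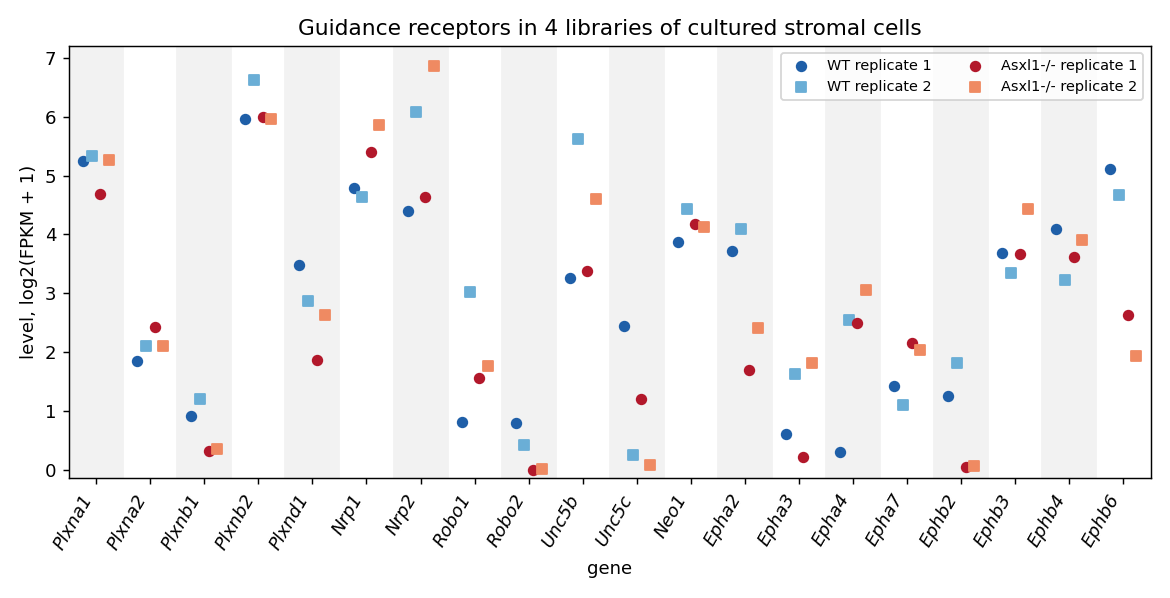
Level of each of the 20 guidance receptors, as log2(FPKM + 1) on the y axis, with 1 point for each of the 4 libraries. Ephb6, Epha2, Ephb2, Plxnd1, Plxnb1 and Robo2 have both Asxl1-/- points below both WT points, Nrp1, Plxna2 and Epha7 have them above, and the other 11 receptors overlap.

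A list of 37 further genes of the same families and their relatives held few expressed members. Only 10 had a mean of at least 1 FPKM, and 4 (Dcc, Ntng1, Epha6 and Epha10) were listed at 0 in all 4 libraries, Dcc being the classical netrin receptor. Of the 10 tested, 1 was higher and 3 were lower at an unadjusted limma p under 0.05 (2.51% and 5.41% of all genes tested), and 0 passed the adjusted threshold in either direction. The 3 became 1 without WT replicate 2, without Asxl1-/- replicate 1 or without Asxl1-/- replicate 2, and 6 with no filter; the 1 became 0 with no filter, without WT replicate 1 or without Asxl1-/- replicate 2. The median log2 fold change was -0.49, against -0.07 for all genes tested, and it moved with the libraries and the filter: it was -0.083 without WT replicate 1, 0.035 without Asxl1-/- replicate 1 and 0.001 at a mean of at least 5 FPKM. Flrt2, a membrane protein that binds Unc5 receptors and acts as a repulsive cue, stood at 13.0 and 13.6 FPKM in WT and 1.81 and 2.15 FPKM in Asxl1-/-, with close replicates (log2 fold change -2.27, standard error 0.24, limma adjusted p = 0.353). It is marked significant in the authors' deposited table (q = 0.00836). Sema4g stood at 2.89 and 3.79 FPKM in WT and 1.06 and 1.30 FPKM in Asxl1-/- and Plxna3, a further neuropilin partner, at 12.9 and 10.4 FPKM in WT and 5.53 and 7.38 FPKM in Asxl1-/-. The gene higher in Asxl1-/- was Ntn4, a laminin-related netrin, at 0.139 and 2.71 FPKM in WT and 6.51 and 53.2 FPKM in Asxl1-/-.

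Of 66 genes that carry guidance signals inside the cell, or shed the ligands and receptors, 55 were tested, with 2 higher and 1 lower at an unadjusted limma p under 0.05 (2.51% and 5.41% of all genes tested) and 0 past the adjusted threshold. Over the alternatives the higher ones numbered 1 to 4 and the lower ones 0 to 4. Their median log2 fold change of -0.10 lay near that of all genes tested, and both Asxl1-/- libraries lay above WT for 10 of the 55 (18.2%) and below for 9 (16.4%), against 15.6% and 25.2% of all genes tested. The adaptor Nck2, which couples ephrin-B and Eph receptors to the cytoskeleton, stood at 9.11 and 8.43 FPKM in WT and 18.4 and 16.4 FPKM in Asxl1-/-. The Slit-Robo GTPase activator Srgap1 stood at 0.880 and 1.41 FPKM in WT and 7.86 and 2.60 FPKM in Asxl1-/-, and the kinase Pak1, an effector of Rac and Cdc42, at 16.4 and 25.3 FPKM in WT and 12.1 and 8.71 FPKM in Asxl1-/-. The small GTPase Rras, which plexins inactivate, stood at 30.7 and 28.9 FPKM in WT and 40.7 and 50.1 FPKM in Asxl1-/-. The log2 fold changes were 0.91 for Nck2, 1.41 for Srgap1, -0.92 for Pak1 and 0.58 for Rras, with limma adjusted p of 0.538, 0.628, 0.613 and 0.632.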

How the data were processed

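RNA sequencing of 2 WT and 2 Asxl1-/- samples of cultured cells gave the deposited FPKM table, made per the submitters' processing notes with TopHat2 (version 2.0.3) and Cufflinks (version 2.2.1) on mm10; annotation, kit and strandedness: not given in the sources used here. Hence overlapping and antisense genes are uncertain. The second table deposited by the authors is Cuffdiff output, per the file headers: a group FPKM, its log2 ratio, a p-value and a q-value. Its group FPKM are larger than means of the library FPKM by a factor that is near constant within each group. A log table was not used. Per-library columns without a matching sample, 2 in the FPKM table and 2 in the log table, were left out. In each table their names mark a further WT and a further knockout library. Read numbers are unknown; relative depths, from the steps of low FPKM, lay between 0.954 and 1.03, and FPKM sums between 497340 and 703730.

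From 24487 rows 1 row per symbol was kept, the one with the highest mean. Genes whose mean reached 1 FPKM entered the test, two-sided, on log2(FPKM + 1) in limma 3.58.1 under R 4.3.3 (eBayes, trend on), with Benjamini-Hochberg adjustment over all of them; fold changes on that scale understate those of low genes. The fit was tested on simulated data with a smaller spread than many genes show here, so that test does not give its power on these data. Groups came from the genotype label and replicate numbers from accession order. The members and lists were chosen with earlier results of these data known. Family sums and shares cover only the genes among the 41. Of the marker symbols, 1 (Adgre1, an alias of Emr1) had no row. Statistics are printed for members with an unadjusted p under 0.05, or with no overlap and a log2 fold change of at least 1 in size, or marked by the authors; from each further list the 4 smallest p are named. The remaining values, Efna3 among them, were named after they were seen. Alternatives were 2 pseudocounts, 2 filters, 3 scalings, 2 eBayes settings, a length limit and each library left out. File starts have 1 added. Tables were made with Python (version 3.11.15).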

Additional observations from a re-analysis of the deposited data

How the results depend on the processing

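No guidance gene passed the adjusted threshold under any of the 14 alternatives. Of the 41, 23 kept their direction under all alternatives that gave them a value, among them Efna1, Sema3a, Epha2, Ephb6 and Nrp1. The 23 include the 5 genes with a mean below 1 FPKM, which had a value only in the fit with no filter. That fit, like the other filter, the eBayes settings and the length limit, leaves each fold change unchanged. Only the pseudocounts, the scalings and the left-out libraries could alter a direction. No paired analysis was possible because the replicate numbers come from accession order and link no samples. Over all genes 0 were called higher and 3 lower; leaving out a library gave 0 to 4 higher and 1 to 6 lower, the fit with no filter 1 lower, and the fit without genes under 300 bp 0 lower. At an unadjusted p under 0.05, lower ligands numbered 1 at a mean of at least 5 FPKM, where fewer genes enter, 2 under either median ratio scaling or quantile normalization, and 2 to 4 with a library left out. Lower receptors numbered 5 with no filter, which adds Ephb2, Plxnb1 and Robo2. Higher ligands numbered 1 after median ratio scaling and with chromosome medians removed, and 0 to 2 with a library left out. Higher receptors numbered 2 after median ratio scaling, after quantile normalization, with chromosome medians removed and in eBayes without trend, and 0 to 1 with a library left out. Median ratio scaling and quantile normalization moved the median log2 fold change of all genes from -0.07 to 0.01 and 0.02. The receptor median ran from -0.33 to 0.37 with a library left out; the cause was not tested. Another sign under an alternative that kept all libraries was seen for Epha3 (0.06 after quantile normalization, 0.12 with chromosome medians removed) and Sema4c (-0.048 with chromosome medians removed). Without 1 of the libraries both signs were seen (log2 fold change) for Sema3d (-0.15 to 2.50), Sema3f (-1.87 to 0.89), Sema4c (-0.28 to 0.35), Sema5a (-0.69 to 0.19), Sema6d (-0.20 to 0.37), Sema7a (-3.39 to 0.155), Plxnb2 (-0.64 to 0.013), Nrp2 (-0.61 to 1.62), Slit2 (-0.51 to 0.96), Slit3 (-0.15 to 2.17), Robo1 (-1.36 to 0.86), Unc5b (-1.64 to 0.73), Unc5c (-1.81 to 0.39), Neo1 (-0.28 to 0.28), Efna5 (-0.39 to 0.62), Efnb2 (-0.21 to 0.81), Epha3 (-0.89 to 0.70) and Ephb4 (-0.33 to 0.53). Read numbers are unknown, so no counting error can be given for the low genes (Robo2, Sema6a, Plxnb1).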
